A study of Mus musculus with 20 samples.

Results

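Drd1, Drd2, Adora2a, Ppp1r1b, Rgs9, Gpr6 and Pde10a are 7 genes of the dopamine and adenosine signalling chain of striatal projection neurons, and were followed here in mouse neocortex as biology and as a check on the dissection. Members were the probe sets that the platform annotation of the array assigns to 1 of these genes alone. They were 13 of 45037 probe sets and covered 6 of the 7 genes. No probe set used here was assigned to Adora2a, and that gene was not analysed here. Drd1 had 2 probe sets, Rgs9 3, Pde10a 5, and Drd2, Ppp1r1b and Gpr6 1 each.

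The study measured polyadenylated RNA from frozen neocortex of 20 male mice on Affymetrix oligonucleotide arrays, 1 array per mouse. All mice were first-generation hybrids of the B6 and C3H strains, kept 1 to a cage. Mixture mice were 30 months old and had been fed 500 mg/kg α-tocopherol with 500 mg/kg γ-tocopherol since 15 months of age, and α-tocopherol mice, also 30 months old, 1000 mg/kg α-tocopherol since the same age. Old control mice (30 months) and young control mice (5 months) received the control diet. Each group had 5 mice. The 2 tocopherols are forms of vitamin E that differ in 1 ring methyl group, which γ-tocopherol lacks.

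Medium spiny neurons, the output cells of the striatum, fall into a direct pathway class that carries the dopamine D1 receptor and an indirect pathway class that carries the dopamine D2 receptor with the adenosine receptor encoded by Adora2a and with Gpr6. D1 receptors and that adenosine receptor raise cAMP and D2 receptors lower it, protein kinase A turns DARPP-32, the product of Ppp1r1b, into an inhibitor of protein phosphatase 1, Pde10a degrades cAMP and cGMP, and Rgs9 speeds the switching off of G proteins behind D2 receptors. These transcripts are most abundant in the striatum, and neocortical neurons carry several of them at lower levels, among them Drd1, Drd2 and Ppp1r1b in deep-layer cells. The striatum lies directly under the neocortex and its white matter.

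Signals are the deposited linear intensities, for which every array had the same trimmed mean of 1000. All 6 measured genes had a probe set in the brighter 60% of the array, above a mean signal of 184, and 12 of the 13 probe sets lay there. The exception was the dimmest Pde10a probe set, 1432490_a_at. Each gene is shown first by its brightest probe set, and levels of different probe sets are not set against each other.

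Promoter sequences are shown for 4 of the members, since members are compared with each other across mice further on, and were searched for the cAMP response element. They run from 250 bases before to 50 bases after a RefSeq transcription start in GRCm38.p6, 5′ to 3′ on the gene's strand, with capitals marking that element, TGACGTCA. For Drd1, which has 2 starts in the table, the upstream one is printed.
Gpr6, chr10:41072241-41072540, minus strand: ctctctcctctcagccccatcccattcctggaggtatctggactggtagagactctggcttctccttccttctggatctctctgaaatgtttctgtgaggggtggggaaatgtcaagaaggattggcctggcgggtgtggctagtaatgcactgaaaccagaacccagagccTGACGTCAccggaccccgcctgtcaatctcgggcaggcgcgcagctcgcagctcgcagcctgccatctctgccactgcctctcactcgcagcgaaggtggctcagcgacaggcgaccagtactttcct
Drd1, chr13:54055609-54055908, minus strand: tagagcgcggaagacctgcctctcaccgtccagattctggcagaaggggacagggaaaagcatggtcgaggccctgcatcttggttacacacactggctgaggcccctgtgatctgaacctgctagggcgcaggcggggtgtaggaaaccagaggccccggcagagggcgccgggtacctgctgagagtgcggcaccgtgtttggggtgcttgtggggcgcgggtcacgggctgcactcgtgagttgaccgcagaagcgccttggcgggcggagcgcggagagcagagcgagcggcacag
Drd2, chr9:49340153-49340452, plus strand: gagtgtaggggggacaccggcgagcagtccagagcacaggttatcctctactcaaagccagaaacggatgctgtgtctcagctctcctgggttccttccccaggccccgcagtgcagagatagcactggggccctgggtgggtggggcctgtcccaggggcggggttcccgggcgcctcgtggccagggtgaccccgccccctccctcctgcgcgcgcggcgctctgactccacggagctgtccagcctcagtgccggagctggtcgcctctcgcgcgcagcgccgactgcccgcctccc
Rgs9, chr11:109298132-109298431, minus strand: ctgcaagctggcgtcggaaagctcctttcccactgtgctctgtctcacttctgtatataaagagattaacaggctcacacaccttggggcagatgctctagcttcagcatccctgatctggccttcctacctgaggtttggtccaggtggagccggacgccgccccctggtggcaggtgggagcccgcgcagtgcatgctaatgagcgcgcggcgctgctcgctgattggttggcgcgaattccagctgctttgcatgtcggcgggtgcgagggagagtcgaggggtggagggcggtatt
The Gpr6 stretch held TGACGTCA once, beginning 78 bases upstream of the start. That motif was found in 588 of 32851 mouse promoters of the same length, or 1.79%. The shorter TGACG, searched on both strands and contained in the longer motif, matched the Gpr6 stretch 2 times, both within TGACGTCA, and was present in 20.8% of promoters. Neither motif occurred in the stretches of Drd1, Drd2, Rgs9 or Pde10a. GC content was 58.7% for Gpr6, 65.7% for Drd1, 70.3% for Drd2 and 60.3% for Rgs9, against a median of 52.7% over all promoters.

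Neither dopamine receptor passed the threshold between old and young neocortex, and both had small differences. Drd1, the D1 receptor, had signals of 2773, 2283, 2739.8, 1957 and 2041 in mixture mice, and of 2199, 2554, 3131, 2528 and 2431 in α-tocopherol mice. The signals were 2832, 2762, 2845, 3635 and 2404 in old control mice, against 2537, 2118, 3059.6, 3076 and 3595 in young control mice. The old and young ranges overlapped almost fully. Drd1 averaged 2869 in old control and 2831 in young control mice, a log2 difference of 0.02 ± 0.13 (SE, n = 5 mice per group, limma adjusted p = 0.948), and its 95% interval ran from 0.836-fold to 1.23-fold. In whole tissue, fewer cells of a type and less RNA per cell cannot be told apart, so each difference is one of tissue level.

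The other Drd1 probe set, 1455629_at, read 1896, 2258, 2377, 1446 and 1724 in mixture mice and 1369, 1669.5, 1734, 1733 and 2001 in α-tocopherol mice. It read 1817, 1909.5, 1907, 2522 and 1543 in old control mice, against 1500.4, 1533, 2046, 1979.5 and 1649.8 in young control mice. Old control mouse 4 had the highest Drd1 signal of its group on both probe sets, and the age difference of the second was 0.15 ± 0.14 on the log2 scale (SE, limma adjusted p = 0.534). After group means were removed, the 2 Drd1 probe sets correlated with r = 0.66 over the 20 mice.

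Drd2, the D2 receptor, had signals of 2248, 2101, 2423, 2183 and 2269 in mixture mice, and of 1760.3, 2060.4, 2646, 1929 and 2397 in α-tocopherol mice. The signals were 2690.3, 2459, 2273, 2452 and 1954 in old control mice, against 2241, 2098, 2507, 2232 and 2172 in young control mice. Only old control mouse 5 lay below 2000 among the control mice, and young control values fell inside the old range. The log2 difference with age was 0.07 ± 0.10 (SE, n = 5 per group, limma adjusted p = 0.71), with an interval of 0.912-fold to 1.2-fold. Over all 20 mice the highest Drd2 signal was 1.53 times the lowest.

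The signalling genes downstream of the receptors did not pass either. Ppp1r1b, which encodes the phosphatase inhibitor DARPP-32, had signals of 11449, 10295, 10999.8, 9295 and 10409.5 in mixture mice, and of 9631, 10821, 10002, 11003 and 11209.7 in α-tocopherol mice. The signals were 10759.6, 11939, 9192, 12699.9 and 10040.5 in old control mice, against 10289, 9748, 11013, 11247 and 12382 in young control mice. Old control mice included both the highest and the lowest Ppp1r1b signal of all 20 arrays, and these were 1.38-fold apart. The old minus young difference was -0.01 ± 0.08 on the log2 scale (SE, limma adjusted p = 0.974), with an interval of 0.882-fold to 1.12-fold.

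Rgs9, the G protein regulator, had signals of 4805, 5847, 5524, 5022 and 6393 in mixture mice, and of 4722, 5589, 5453, 5158 and 5609.8 in α-tocopherol mice. The signals were 6276, 5593, 5517, 6285 and 4426 in old control mice, against 4905, 4688, 4994, 5923 and 5271 in young control mice. The groups overlapped, with old control mouse 5 the lowest of the 20 mice. Rgs9 averaged 5576 in old control and 5139 in young control mice (log2 difference 0.12 ± 0.09 SE, limma adjusted p = 0.458). Its other probe sets were dim, running from 121.8 to 331.6 on 1426033_at and from 250.1 to 654.0 on 1439635_at. Their age differences were -0.35 ± 0.21 and -0.01 ± 0.22, so neither separated old from young mice.

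Gpr6, a receptor of indirect pathway neurons that is active without a known transmitter, had signals of 2158, 2545, 2262, 2017 and 2381 in mixture mice, and of 1967, 2280.4, 2136, 2523 and 2581 in α-tocopherol mice. The signals were 2169, 2345, 2228, 2852 and 2088 in old control mice, against 1963, 1884, 2229, 1944 and 1943 in young control mice. Of the young mice, 4 lay below every old control mouse, and young control mouse 3, at 2229, lay within the old range. Gpr6 averaged 2322 in old control and 1989 in young control mice, a log2 difference of 0.22 ± 0.09 (SE, n = 5 per group). Its unadjusted limma p was 0.0216 and its adjusted p 0.116, which did not pass the threshold of 0.05.

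Pde10a, the striatum-rich phosphodiesterase, had signals of 7450.0, 5290.0, 8773, 8033 and 6536 in mixture mice, and of 6094, 7104, 5449, 5405 and 7830.3 in α-tocopherol mice. The signals were 7249, 5446, 4836, 6423 and 5114 in old control mice, against 5735, 7737, 6692, 5056 and 7754 in young control mice. Both groups spanned most of the same range, and the log2 difference was -0.18 ± 0.15 (SE, limma adjusted p = 0.471). The probe set 1419389_at had the opposite sign. It read 1623, 1391, 2051, 1773 and 1059.9 in old control mice, against 982.7, 1162, 1444, 1015 and 1257 in young control mice, and 3 of the 5 old values exceeded every young one. Its difference was 0.40 ± 0.16 on the log2 scale (SE, limma adjusted p = 0.115). Across the 5 Pde10a probe sets the age difference was positive on 3 and negative on 2, so they gave no single direction for the gene.

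Taking all 13 probe sets, 0 passed an adjusted p of 0.05 between old and young control mice, where 10.8% of all probe sets did (4875 of 45037). At an unadjusted p under 0.05 there were 2 of 13 members, against 26.0% of all probe sets. The 95% intervals of all 6 brightest probe sets lay within 1.5-fold in either direction. The call count was sensitive to the scaling and to 1 mouse. With array medians set equal, which moved the median difference of all probe sets from -0.077 to 0.046, Gpr6 (0.36, adjusted p = 0.0216) and Pde10a 1419389_at (0.54, adjusted p = 0.0208) passed, both higher in old mice. Without old control mouse 5, Pde10a 1419389_at passed (0.54, adjusted p = 0.0342).

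**Figure D1:**
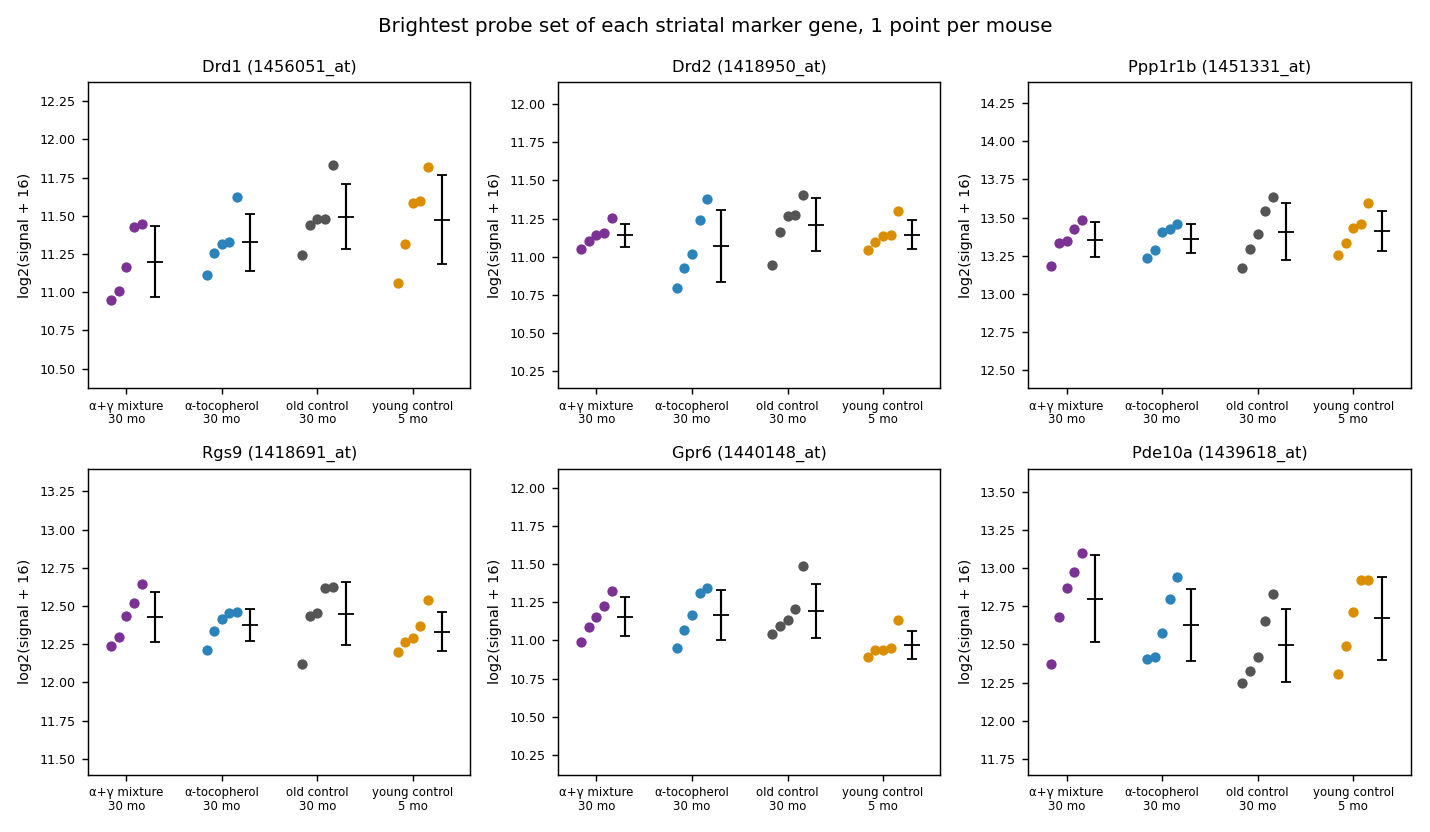
Signal of the brightest probe set of 6 striatal marker genes, as log2(signal + 16), with 1 point per mouse and bars for the group mean ± SD (n = 5 mice per group); points are sorted within a group and every panel spans 2 log2 units. The 4 groups overlap in every panel, and Gpr6 in young control mice sits lowest except for 1 mouse at 2229.

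Neither supplement moved any of the 13 probe sets past the threshold against old control mice. For α-tocopherol this was 0 of 13, where 0% of all probe sets passed, 2506 of 45037 having an unadjusted limma p under 0.05. Members had no unadjusted p under 0.05 in this comparison, and their adjusted p ran from 0.907 to 0.995. Drd1 averaged 2551 in α-tocopherol mice and 2869 in old control mice (log2 difference -0.17 ± 0.13 SE), and Drd2 averaged 2135 and 2352 in the same order (-0.14 ± 0.10). Differences were smaller for Ppp1r1b (-0.05), Rgs9 (-0.07) and Gpr6 (-0.02), and the intervals of all 6 brightest probe sets lay within 1.5-fold.

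For the mixture 0 of 13 passed, where 1.09% of all probe sets did. Here 5 of 13 members had an unadjusted limma p under 0.05, against 14.8% of all probe sets. The 5 were Drd1 1456051_at, with a negative difference, and 4 Pde10a probe sets, with positive ones. Drd1 averaged 2334 in mixture mice and 2869 in old control mice (log2 difference -0.30 ± 0.13 SE, adjusted p = 0.299), while its other probe set averaged 1910 and 1915, a difference of 0.00 ± 0.14. The 2 probe sets of Drd1 therefore gave different sizes, and the gene has no single value for this comparison. Drd2 (-0.07), Ppp1r1b (-0.05), Rgs9 (-0.02) and Gpr6 (-0.04) differed by less than the spread between mice, which for these probe sets was an SD of 0.136 to 0.158 within groups. Of the 6 brightest intervals 5 lay within 1.5-fold, and that of Pde10a reached 1.52-fold.

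**Figure D2:**
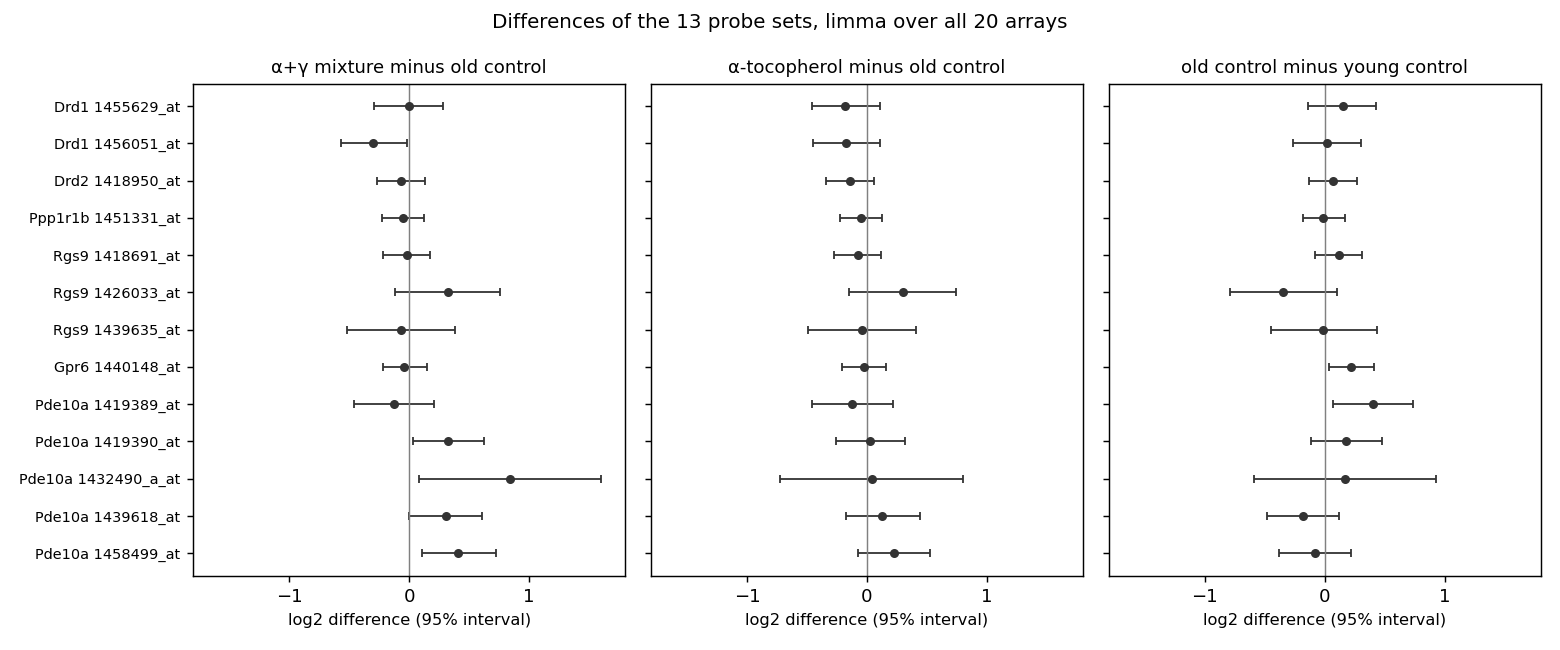
Log2 differences with 95% intervals (limma, n = 5 mice per group) of the 13 probe sets, for the mixture and α-tocopherol against old control and for old against young control mice. Most intervals cross 0, and 4 of the 5 Pde10a intervals in the mixture panel lie at or above it.

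Pde10a was followed on every probe set because it had the most of them. In mixture mice 1458499_at read 5299, 4566, 4754, 4213 and 7107, against 2998, 4019.5, 3782, 4185 and 4275 in old control mice. The ranges met only between 4213 and 4275, and the log2 difference was 0.41 ± 0.15 (SE, n = 5 per group, limma unadjusted p = 0.00973, adjusted p = 0.164). On 1419390_at mixture mice had 1128, 1001, 940.4, 1018 and 1616, against 873.5, 893.4, 885.8, 1024 and 794.2 in old control mice, a difference of 0.32 ± 0.14. Mixture mouse 5 was the highest on both.

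The dim probe set 1432490_a_at read 273.8, 217.7, 266.2, 281.9 and 492.2 in mixture mice, 104.1, 203.6, 182.1, 177.0 and 163.0 in α-tocopherol mice, 259.0, 166.5, 190.6, 206.3 and 53.2 in old control mice and 58.0, 182.5, 231.6, 80.1 and 238.6 in young control mice. The mixture and α-tocopherol values did not overlap. This was the single case without overlap among the 52 comparisons of member probe sets, and its difference was 0.80 ± 0.37 (SE, limma adjusted p = 0.680). The share of all probe sets without overlap was not counted, so this case cannot be set against it. On 1419389_at the mixture minus old control difference was -0.13 ± 0.16, opposite in sign to the other 4. After group means were removed, the Pde10a probe sets correlated with r between -0.09 and 0.81, highest for 1419390_at with 1458499_at. The mixture differences of Pde10a did not pass the adjusted threshold under any alternative tried, the brightest probe set keeping values from 0.20 to 0.41.

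**Figure D3:**
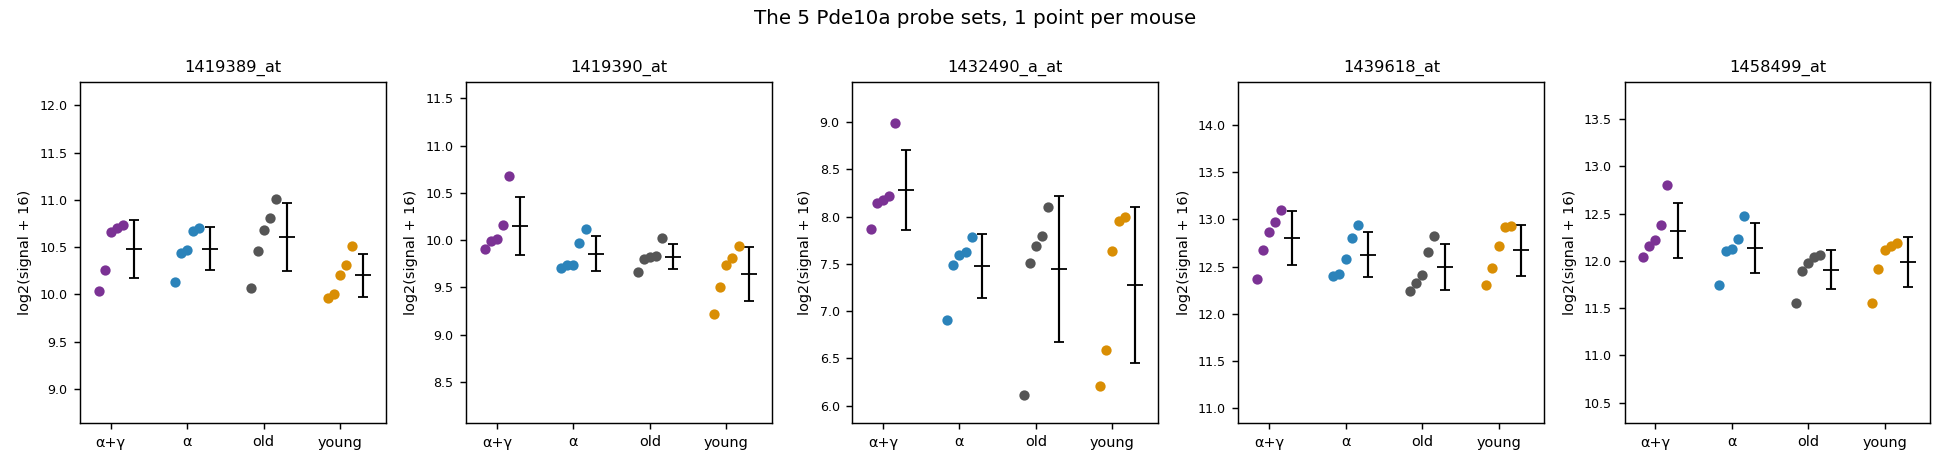
Log2(signal + 16) of the 5 Pde10a probe sets in each mouse, with group means ± SD (n = 5), for mixture (α+γ), α-tocopherol (α), old control (old) and young control (young) mice; every panel spans 3.6 log2 units. Mixture means are above old control means on 4 probe sets, and below it on 1419389_at.

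Between the supplements 0 of 13 member probe sets passed, and 0% of all probe sets did, with 3211 of 45037, or 7.13%, at an unadjusted limma p under 0.05. Among the members only Pde10a 1432490_a_at was at such a p (limma unadjusted p = 0.0399, adjusted p = 0.680). Drd1 averaged 2334 in mixture and 2551 in α-tocopherol mice (log2 difference -0.13 ± 0.13 SE), and Drd2 averaged 2242 and 2135 (0.07 ± 0.10). Ppp1r1b differed by -0.01, Rgs9 by 0.05, Gpr6 by -0.01 and Pde10a by 0.17 on its brightest probe set. The 6 intervals lay within 1.5-fold, from 0.755-fold for Drd1 to 1.39-fold for Pde10a. The α-tocopherol doses differed between the 2 diets, so the comparison is of the diets as fed and not of the γ-tocopherol addition alone.

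The members were next compared with each other across mice. After group means were removed, 14 of the 15 pairs of genes had a positive Pearson r, with a median of 0.35 and a range of -0.02 to 0.67 over 20 mice. Only Drd1 with Ppp1r1b passed adjustment over the 15 pairs (r = 0.67, permutation p = 0.00256, adjusted p = 0.0384), and its Spearman rho of 0.63 did not (permutation p = 0.00691, adjusted p = 0.0901). Without the 2 mice farthest from the median of Drd1, r was 0.57, and no pair then passed. Ppp1r1b and Gpr6 had r = 0.59, Drd2 and Rgs9 0.53, Rgs9 and Gpr6 0.53, and Drd1 and Drd2 0.50, none of which passed. All signals of a mouse come from 1 array with 1 scaling factor, which the pairs share.

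Set against the mean of the other members, Ppp1r1b had r = 0.69, Drd1 0.59, Drd2 0.57, Rgs9 0.54 and Gpr6 0.50, and Pde10a 0.17. Pde10a was thus the member least like the others. The extremes were both old controls. Old control mouse 4 was above its group's mean for 6 of 6 members, at a mean deviation of 1.21 within-group SDs, and old control mouse 5 was below it for all 6, at -1.24. α-Tocopherol mouse 1 (-1.06), old control mouse 3 (-0.60) and young control mouse 1 (-0.43) were also below for all 6. In mixture mice the mean deviation ran from -0.65 to 0.57, and in young control mice from -0.67 to 0.58.

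**Figure D4:**
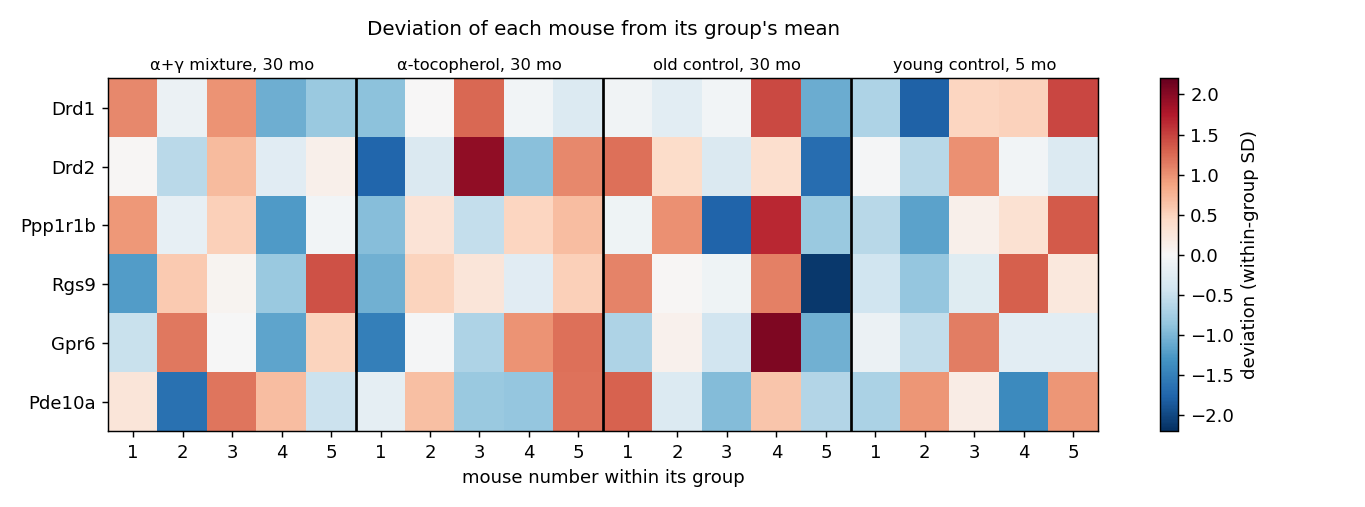
Deviation of each mouse from its group's mean for the brightest probe set of each member, in within-group SDs (colour scale), with mice in columns by group and mouse number. Old control mouse 4 is high in all 6 rows, and old control mice 3 and 5, α-tocopherol mouse 1 and young control mouse 1 are low in all 6.

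The pattern was compared with every other gene as a description. The members' mean deviation was correlated over the 20 mice with each of 18187 other genes on its brightest probe set, and their median r was -0.01. The closest matches below were instead sought among all probe sets with 1 gene symbol outside the members. That is a larger set, in which a gene with several probe sets had several chances. The closest were Rarb, a retinoic acid receptor of striatal neurons (r = 0.84), Usp53 (0.80), the transcription factor Foxp2 on one of its probe sets (0.79), Lbh (0.76), Fgd5 (0.75), Rcor3 (0.75), Tox (0.74), S100pbp (0.74), Zfp467 (0.74) and Mapk13 (0.74). On its brightest probe set Foxp2 had r = 0.50. Usp53 and Mapk13 had signals as low as 16.7 and 16.1. The genes most like single members were Htr1b, a serotonin receptor, for Drd1 (0.85), Cerk for Drd2 (0.86), Lmbr1 for Ppp1r1b (0.82), Clnk for Rgs9 (0.83), Slc26a1 for Gpr6 (0.84) and Npy5r, a neuropeptide Y receptor, for Pde10a (0.87). Next for Drd1 was Rxrg, a retinoid receptor partner in striatal neurons (0.83).

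Other markers of striatal neurons were read against the same pattern. In a list of 32 such genes, 28 had a probe set of their own. Of these 26, or 92.9%, had a positive r with the members' mean, against 48.7% of all genes, and their median r was 0.38. In the top 5% of all genes, above r = 0.40, were 11 of them, or 39.3%. They included Rarb, Slc35d3 (0.71), Strip2 (0.67), the transcription factor Foxp1 (0.65), Rasgrp2 (0.62), Syndig1l (0.58), Six3 (0.54) and Tac1, the substance P precursor of direct pathway neurons (0.49). Penk, the enkephalin precursor of indirect pathway neurons, had r = 0.38. Neocortical projection neuron markers had a median r of 0.00 (9 of 18 positive), choroid plexus markers -0.16 (2 of 9), hippocampal markers -0.24 (2 of 9), thalamic markers 0.09 (8 of 10) and white matter markers 0.13 (5 of 7). The cAMP and DARPP-32 partners had a median r of -0.17 (8 of 33 positive). Several striatal markers, such as Foxp1, are also expressed by neocortical neurons, and these shares are descriptions without a test.

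**Figure D5:**
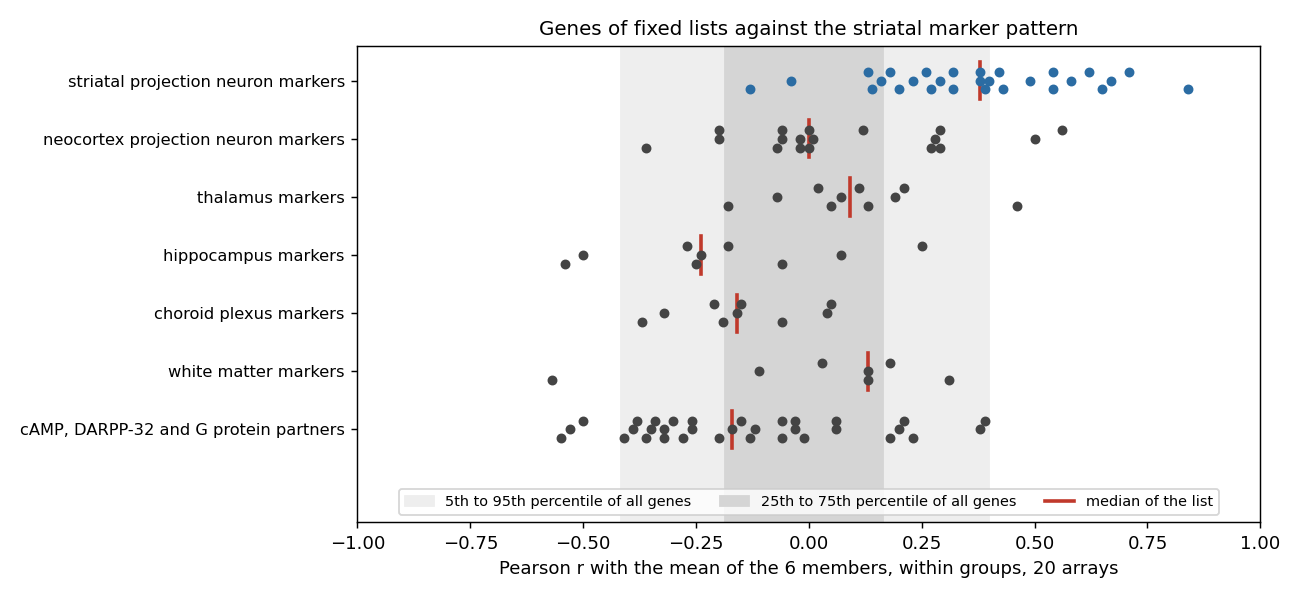
Pearson r of each gene with the members' mean deviation over 20 mice, by marker list, with 1 point per gene, a line at each list's median, and shaded bands for all genes. Of 28 striatal markers 26 lie above 0, and the list's median of 0.38 lies near the upper edge of the wider band.

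As a check on dissection, the summed signal of the 28 striatal markers ran from 82280 to 97540 in mixture mice, from 87497 to 101173 in α-tocopherol mice, from 83541 to 107716 in old control mice, and from 82837 to 93175 in young control mice. The highest mouse had 1.31 times the lowest. The 18 neocortical markers varied 1.34-fold, the thalamic markers 2.06-fold, the hippocampal markers 1.34-fold, the white matter markers 1.61-fold, the olfactory bulb markers 2.84-fold and the choroid plexus markers 5.18-fold. White matter sums ran from 69661 to 81898 in mixture mice and from 82787 to 104618 in α-tocopherol mice. They ran from 82803 to 100548 in old control mice, against 64899 to 77080 in young control mice. The old control sums overlapped with neither mixture nor young control sums, but a sum is weighted to the brightest genes. The mean log2 signal of the same 7 genes did overlap. It was 12.417 to 12.93 in old control, 12.537 to 12.765 in mixture and 12.413 to 12.526 in young control mice. Hippocampal sums were 14967 to 16832 in old control mice, against 12537 to 14300 in young control mice, also without overlap. The mean log2 signal of those 9 genes overlapped, at 8.823 to 9.207 in old control and 8.772 to 9.157 in young control mice. Ttr, the choroid plexus transthyretin gene, ran from 8129 to 50082 in old control mice, against 26339 to 39668 in young control mice. Over the mice of all groups, Ttr had r = -0.37 with the members' mean deviation, and the median r of the choroid plexus markers was -0.16. Old control mice had no uniform order. The members' mean deviation was higher where Ttr was lower in mice 1, 2, 4 and 5, but mouse 3, with the lowest Ttr, was low in both. Ttr was 50082 in mouse 5 (members -1.24) and 8129 in mouse 3 (-0.60), both low for the members, and 10254 in mouse 4 (1.21), 14076 in mouse 1 (0.46) and 44097 in mouse 2 (0.17). In α-tocopherol mice Ttr was lowest in mouse 2, at 16214 (members 0.19), and highest in mouse 1, at 44416 (-1.06). The highest members' deviation there, 0.73, was in mouse 5, with a Ttr of 34842. With Ttr in the fit 0 of 13 member probe sets passed in each comparison.

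Of the striatal list, 5 genes were higher and 1 lower in old than in young control mice, with a median log2 difference of 0.081 against -0.040 for all genes. In the same fit 14% of all 18193 genes were called with age on their brightest probe set, 7.75% being higher and 6.23% lower, so 6 calls among 28 are to be read against that share. Scn4b, a sodium channel subunit, averaged 7142 in old control and 5172 in young control mice (0.46 ± 0.10 SE, limma adjusted p = 0.00626). The phosphodiesterase Pde1b averaged 7928 and 6085 (0.38 ± 0.09). The adenylyl cyclase Adcy5 averaged 7958 and 6213 (0.36 ± 0.08), and the G protein subunit Gng7 5336 and 3998 (0.42 ± 0.10). Only 1 of the 4 Adcy5 probe sets had that sign. Rasd2, a small GTP-binding protein, was named after its values were seen. It read 8471, 6239, 9088, 8276 and 6356 in old control mice, against 5049, 5110.4, 5606, 5619 and 5410.4 in young control mice, with no overlap (0.50 ± 0.14, adjusted p = 0.0214). Gng7 also had no overlap, at 4567.2 to 6338.3 in old control and 3769.1 to 4288.5 in young control mice. The share of all genes without overlap was not counted. Slc35d3 was lower in old mice (-0.41 ± 0.13, adjusted p = 0.0486), a call lost in 15 of 23 alternatives. Rasd2 lost its call in 4.

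The 3′ to 5′ signal ratio of β-actin, a sign of RNA quality, ran from 1.73 to 2.52 in old control mice, against 1.42 to 1.74 in young control mice. It ran from 1.22 to 1.6 in mixture mice, without overlap with old control mice, and from 1.43 to 2.36 in α-tocopherol mice. The ratio and the diet were thus confounded in mixture against old control mice. The signal of the 18S ribosomal RNA controls ran from 719.5 to 1078 in old control and from 259.3 to 487.7 in young control mice. It ran from 393.0 to 611.8 in mixture mice and from 419.6 to 1272 in α-tocopherol mice. That signal was thus confounded with age and with the mixture, and the ratio nearly so with age. The part of each was not tested. With the β-actin ratio in the fit 0 of the 28 striatal markers passed in either direction between old and young control mice. Scn4b was then at 0.43 (limma adjusted p = 0.0702), Adcy5 at 0.33 (0.08), Pde1b at 0.33 (0.0919), Gng7 at 0.30 (0.164), Slc35d3 at -0.31 (0.3) and Rasd2 at 0.27 (0.337). Since old and young control mice barely overlapped in the ratio, this fit cannot tell the ratio from age.

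The cAMP and DARPP-32 partners of the members, 33 measured genes, had 11 higher and 0 lower in old control mice, where the 14% of all genes called were 1410 higher and 1134 lower. Their median difference was 0.151. Adcy5 and Gng7 belong to this list and to the striatal one, so their calls are counted in both. Ppp3cb, a catalytic subunit of the phosphatase calcineurin that acts on DARPP-32, averaged 16740 in old control and 13370 in young control mice (0.32 ± 0.06 SE, limma adjusted p = 0.00183). Gnb1, a G protein β subunit, averaged 16180 and 10890 (0.57 ± 0.11), and Gnai1, a G protein that lowers cAMP, 14900 and 12040 (0.31 ± 0.07). That sign was shared by 3 of 5 Ppp3cb probe sets and 2 of 3 of Gnai1. With a β-actin covariate 1 of the 33 passed, under quantile scaling 7 were higher and 2 lower, under cyclic loess 7 higher and 1 lower, and with equal array medians 18 were higher. In mixture against old control mice 3 were lower, namely Prkar1b (-0.39), Ppp3r1 (-0.35) and Gnai1 (-0.29), with adjusted p of 0.0300 to 0.0389, where 1.37% of all genes were called on their brightest probe set, 63 higher and 186 lower. The sign was shared by 4 of 5 probe sets of Prkar1b, 1 of 2 of Ppp3r1 and 1 of 3 of Gnai1. Among the brighter 60% of probe sets 6 were lower, and 5 with 1 probe set per gene. Under quantile scaling, cyclic loess, the β-actin covariate, the fit without the trend and the fit of only these 2 groups 0 passed, as without old control mouse 3, 4 or 5 or mixture mouse 4 or 5, and 1 passed without mixture mouse 2.

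Calls with age in the other lists are to be read against the 14% of all genes called, 7.75% being higher and 6.23% lower. Among the 17 other phosphodiesterases, Pde2a (0.57) and Pde1b (0.38) were higher and Pde1c (-0.84), Pde3b (-0.32) and Pde1a (-0.28) lower. That sign was shared by 2 of 3 probe sets of Pde2a, 3 of 6 of Pde1c and 1 of 2 of Pde1a. Maoa, a monoamine oxidase, was lower (-0.28) among 7 measured genes of dopamine receptors and turnover. Slc6a3, the dopamine transporter, was lower among 11 afferent markers, at a mean of 162.3 in old control and 306.1 in young control mice (-0.85 ± 0.24), a call lost in 10 of 23 alternatives. Ahcy, an adenosine-forming hydrolase, was higher (0.33) among 7 adenosine genes. None of the 12 RGS genes passed, Rgs4 (-0.24, limma adjusted p = 0.0533) and Rgs7bp, an anchor of Rgs9 (-0.31, adjusted p = 0.0929), having the smallest p. Neither of the Gpr6 relatives passed, Gpr12 being at 0.17 and Gpr3 at -0.05.

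The lists of neighbouring tissue were also read between old and young control mice, where 14% of all genes were called. The vesicular glutamate transporter Slc17a7 (0.63) and Cux2 (0.51) were higher among 18 neocortical genes. Zic1 (-0.76) and Slc17a6 (-0.50) were lower among 10 thalamic genes, and Mobp (0.66), Cnp (0.52) and Mbp (0.37) higher among 7 white matter genes. In mixture mice Mbp was lower than in old control mice (-0.50). The calls of Slc17a6, Mbp with age and Mbp with the mixture were lost in 15, 10 and 11 of 23 alternatives. Of the 9 choroid plexus genes, 9 had negative differences and 0 passed, Kl having the smallest p (-1.05, limma adjusted p = 0.0766). Hippocampal and olfactory bulb genes had no calls, their smallest p being those of Wfs1 (0.33, adjusted p = 0.0741) and Trh (1.09, adjusted p = 0.433). In mixture against old control mice, 10 of 10 thalamic genes (median log2 difference 0.592) and 9 of 9 choroid plexus genes (0.572) had positive differences. Of the 18 neocortical genes 3 did (-0.185), and the median of all genes was 0.009. Hippocampal genes had a median of 0.135, olfactory bulb genes 0.019 and white matter genes -0.065. Of the thalamic, choroid plexus and neocortical genes 0 passed there. The part of these tissues in the members' values was not tested. In α-tocopherol against old control mice, and in mixture against α-tocopherol mice, 0 genes of any of the 14 lists passed.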

How the data were processed

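The authors deposited a linear signal intensity per probe set and array, made with GCOS, per the submitters' processing notes. How background, detection calls and probe summaries were handled, and the GCOS version, were not given in the sources used here. Each column had a 2% trimmed mean of 1000, so values were used as deposited. A shift of all RNA one way cannot be seen after such scaling.

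Of 45101 probe sets, 64 controls were left out. The annotation gave 1 symbol to 34945 of the rest, several to 932 and none to 9160. Of those with 1 symbol, 34741 took the RefSeq symbol of GRCm38.p6 by gene identifier. Values were log2(signal + 16), which understates changes of dim probe sets, and means are back-transformed. Tests were two-sided in limma 3.58.1 (R 4.3.3), with an intensity trend, 4 group coefficients and Benjamini-Hochberg adjustment over all 45037 probe sets in each comparison. The fitting was tested on simulated data with 200 changed probe sets. Correlations used 100000 permutations within groups. The design foresaw 7 genes, and Adora2a left 6 genes and 15 pairs. Members and all 14 lists were chosen with earlier results of these data known. Named list genes were up to 4 with the smallest p in each direction, or 2 where none passed. Each gene of a list was read from its brightest probe set. The labels give no array batch, and the number of arrays limits precision.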

Additional observations from a re-analysis of the deposited data

Results flagged for a closer look

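Gpr6 in young control mouse 3 had a signal of 2228.8, and the other 4 young control mice lay between 1884.3 and 1963.3. The gap to the nearest of them was 0.76 of the group's range, above the critical value of 0.71 for 5 samples. The check was run on 52 sets of 5 mice, the 13 probe sets in each of the 4 groups, and chance alone gives about 1 in 20. The cause was not tested.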

How the results depend on the processing

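The count of 0 member probe sets stayed 0 in all 4 comparisons under other pseudocounts, filters, quantile and cyclic loess scaling, the fits of 2 groups or without the trend, and the 3 covariates. In the age comparison it was 2 with equal array medians, where Gpr6 passed (0.36), and leaving out 1 mouse gave 0 to 1. With the replicate block, the count was 0 in each comparison; the mouse numbers showed no pairing (median r = 0.0114 over 30 same-number pairs, against -0.00375 for others), and 5 of 20 mice correlated best with their own number. The correlation of members had 1 pair past the threshold, and 0 with quantile scaling, Spearman rho or without the 2 farthest mice.

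Differences near 0 changed sign in places. With age, Drd1 was -0.082 with the striatal marker covariate and -0.050 with the Ttr covariate, and Ppp1r1b 0.13 with equal medians and 0.085 with the β-actin covariate. For α-tocopherol against old control the Ttr covariate gave Rgs9 0.017 and Gpr6 0.0305. For the mixture against old control Ppp1r1b was 0.046 by quantile scaling and 0.073 by cyclic loess. Rgs9 was there 0.011, 0.037 and, with the Ttr covariate, 0.054, and Gpr6 0.00925 with that covariate. For the mixture against α-tocopherol Ppp1r1b was 0.062 by quantile scaling and 0.091 by cyclic loess, and Rgs9 -0.0017 with equal medians.

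Leaving out 1 mouse at a time gave, with age, -0.085 to 0.105 for Drd1 and -0.063 to 0.054 for Ppp1r1b. For α-tocopherol against old control it gave -0.105 to 0.011 for Ppp1r1b and -0.066 to 0.051 for Gpr6. For the mixture against old control the ranges were -0.112 to 0.0040 for Ppp1r1b, -0.077 to 0.038 for Gpr6 and -0.106 to 0.025 for Rgs9. For the mixture against α-tocopherol they were -0.040 to 0.036 for Ppp1r1b, -0.067 to 0.031 for Gpr6 and -0.0032 to 0.0995 for Rgs9. The cause was not tested for any of these. No call was reached in any of these sign changes.

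The alternatives for list counts and list genes were chosen after seeing the data. Over all probe sets, calls with age were 4875, and 1517 with the β-actin covariate, and calls for the mixture against old control were 492, from 0 without the trend to 970 among the brighter 60%. Probe sets as dim as Pde10a 1432490_a_at are limited by signal over background, and no detection calls were used here.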
